A study of Rattus norvegicus with 2 samples.

Results

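Integrin and laminin chain genes were measured in the hypothalamus of rats of both sexes. They were taken as all non-control spots whose gene name in the scanner files was an integrin alpha or beta chain or a laminin alpha, beta or gamma chain with a number. Described here are 24 of the 26055 gene names on the arrays, carried by 30 of 30367 probes and 84 of 42877 non-control spots. They comprised 9 integrin alpha, 8 integrin beta, 3 laminin alpha, 2 laminin beta and 2 laminin gamma genes.

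Both groups were rats of the inbred Wistar Kyoto (WKY) strain, 9 weeks old and killed under ether, and the labels name no treatment that set them apart. Total RNA of the whole hypothalamus of 5 males was combined, 100 ng per rat, and RNA of 5 females was combined in the same way. Of each pool, 150 ng was amplified, labelled with the dye Cy3 and hybridised to 1 Agilent 1-colour array. Each sex was thus 1 pooled sample, the spread between rats was not measured, and no test between the sexes was possible. Below, males and females stand for these 2 pools.

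Integrins are receptors made of 1 alpha and 1 beta chain that span the cell membrane and link the matrix or neighbouring cells to the cytoskeleton. Laminins are trimers of an alpha, a beta and a gamma chain and are the main adhesive proteins of basement membranes, the sheets around brain vessels and under the pia. The pairing decides the ligand: the beta 1 chain serves most matrix receptors, beta 2 is the chain of leukocytes and microglia, and several other beta chains pair with the alpha V chain.

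The array read each gene through 60-base probes. Both probes of Itgb1 are shown, because the difference between the pools depended on which of them was used. The Itga1 probe is shown because its level, scaled to the 75th percentile of the array, was higher in females on all of its 10 spots. The Lamc3 probe is shown because it was well above background in males only, and the Lamc1 probe because its 9 spots were level between the pools. The second Itgb1 probe and the Lamc1 probe are shown as 30-base windows and the others whole. All are written as in the deposited scanner files, 5′ to 3′, and AATAAA, the signal that precedes the cut and the poly(A) tail at the end of many transcripts, is in capitals.

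Itgb1 probe A_44_P273697, bases 1 to 60: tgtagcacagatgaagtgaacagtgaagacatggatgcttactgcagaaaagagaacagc
Itgb1 probe A_44_P507943, bases 1 to 30: gtgagttacttgatcctgtaactcccaacg
Itga1 probe A_42_P463754, bases 1 to 60: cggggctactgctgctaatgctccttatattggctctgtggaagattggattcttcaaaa
Lamc3 probe A_44_P156846, bases 1 to 60: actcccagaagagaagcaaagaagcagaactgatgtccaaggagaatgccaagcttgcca
Lamc1 probe A_42_P592615, bases 14 to 43: cacagggaggttAATAAAgcgcaacacttg

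In the rn4 coordinates of the files, the first Itgb1 probe lay at chr19:58611137-58611196 and the second at chr19:58600532-58600591, both on the minus strand and 10605 bases apart. The second was the one nearer the 3′ end of the gene. The Itga1 probe lay at chr2:47107893-47112038 on the minus strand and the Lamc3 probe at chr3:11040365-11042516 on the plus strand, both spans longer than the probe. The Lamc1 probe lay at chr13:68241505-68241564 on the minus strand. Whether a probe lay in a coding exon or a UTR was not analysed here, since no annotation of rn4 was used.

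AATAAA stood in the sense of the transcript in 4 of the 30 member probes, or 13.3%, against 8.39% of all 30367 probes. The 4 were probes of Itga10, Itgb4, Itgb8 and Lamc1. On the other strand the letters were in 0 member probes and in 2.86% of all probes. The median GC content was 45% for the member probes and 45% for all probes. The 2 Itgb1 probes had little sequence in common, with a longest shared word of 5 bases.

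Each value below is a level on the log2 scale, namely the processed intensity of a spot over the 75th percentile of its array, and each difference is female minus male. A level depends on the probe as well as on the transcript, so levels were compared between the pools and not between genes. In bulk tissue, fewer cells of a type and less RNA per cell cannot be told apart. An error is the SD over the spots of a probe where it was printed on several, and otherwise a technical SD, the spread between repeated spots of like level. It covers scatter within the slide and leaves out the rats, the pooling, the labelling and the hybridisation.

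The 75th percentile was 3769 in males and 2943 in females, 84.9% and 84.2% of spots were well above background, and 0 spots were saturated. Across the 20472 genes measured in both pools the median difference was -0.0001, the SD 0.23 and the SD estimated from the median deviation 0.14. A gene was called apart where it was at least 25% brighter in 1 pool than in the other, 0.32 on the log2 scale. This held for 6.17% of the genes with females higher and for 3.05% with males higher. Scaled to the array medians these shares were 5.05% and 3.83%, and scaled to the E1A spike-ins 3.07% and 7.29%. Some stretches of the slide were less reliable: in slide rows 81 to 180, 401 to 440 and 521 to 532, called defect bands here, 5.36% of 3618 repeated spots lay far from the other spots of their probe, against 0.504% of 9122 spots elsewhere. Of the 24 member probes on a single spot, 9 lay in these bands.

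Nearly all integrin and laminin chains were at similar levels in both pools. 22 of the 24 genes were well above background in both, Lamc3 was so in males only, and Itgb3 in neither. Of the 22, 10 were higher in females, against 50% of all genes, and 12 in males, with a median difference of -0.035. 12 differences were within 1 SD of their error and 10 were beyond it. The share of all genes beyond their error was not counted, so these counts are not a result about the chains. For a gene with 2 measured probes the error was the mean of the 2 probe errors, which leaves out disagreement between the probes. Itgb1 counted as beyond its error, although its 2 probes differed in sign. 0 genes were called higher in females and 0 were called higher in males, against the 6.17% and 3.05% of all genes. At 1.5-fold and 2-fold the counts were also 0, where 1.56% and 0.508% of all genes were higher in females and 0.845% and 0.327% in males. The gene farthest from 0 was Itga6, with 0.26, and 1 of the 2 Itgb1 probes passed the call alone. With normexp background correction, under which the median of all genes was -0.55 and 58.7% of them were at least 25% higher in males, all 22 members were higher in males, 18 of them by at least 25%. With that correction fitted without defect spots, 15 members were higher in females and 7 in males, where 63.6% of all genes were higher in females.

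**Figure D1:**
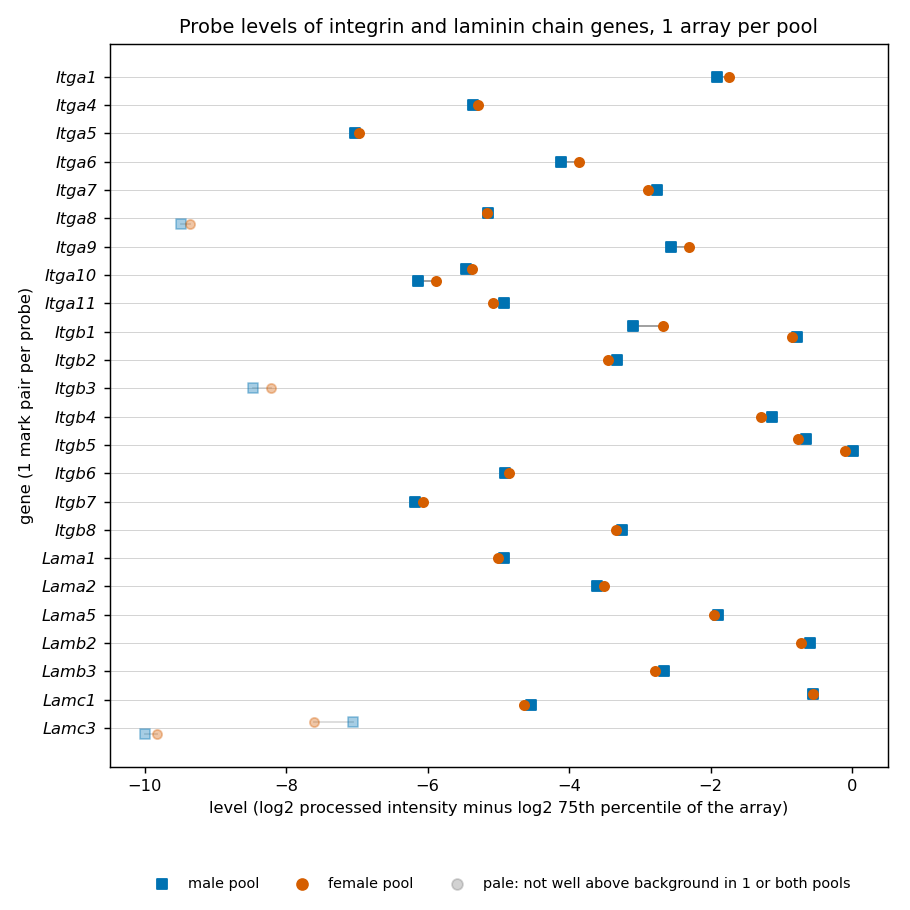
Level of each member probe in males (squares) and females (circles), as log2 processed intensity relative to the 75th percentile of the array; genes with 2 probes have 2 rows of marks, and pale marks were not well above background in 1 or both pools. Most pairs of marks lie close together, and among the probes measured in both pools the pair farthest apart is the first Itgb1 probe, at -3.10 and -2.67.

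The repeated probe with the largest difference among the members was that of Itgb1, the beta 1 integrin chain and common partner of the collagen, fibronectin and laminin receptors. This probe, the first shown above, was read on 10 spots. In males these ran from -3.23 through a median of -3.09 to -3.02, and in females from -2.78 through -2.67 to -2.60. The female spots were all above the male spots, with no overlap. The mean difference was 0.43 ± 0.045 (SD over 10 spots), 1.35-fold, and females were higher on 10 of 10 spots. The 7 spots outside the defect bands gave 0.43 and the 3 inside gave 0.44. Among all 1312 repeated probes on the array, 1.68% had a mean difference as far from 0, and 2.97% were at least 25% apart. Scaled to the E1A spike-ins, the probe was 0.31 higher in females, 1.24-fold, and with normexp background correction its difference was -0.52, or 0.40 when that correction was fitted without defect spots.

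The other Itgb1 probe, a single spot in a defect band nearer the 3′ end, was at -0.78 in males and -0.85 in females. Its difference of -0.072, with a technical SD of 0.064, had the opposite sign. The 2 probes disagreed by 0.50 on the log2 scale, and the mean over them, 0.18, was short of the 25% call. Among the 2779 genes of the array with 2 measured probes the median disagreement was 0.12, the 95th percentile 0.53, and 5.61% of genes exceeded 0.5. Which of the 2 readings stood for the whole Itgb1 transcript was not tested.

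**Figure D2:**
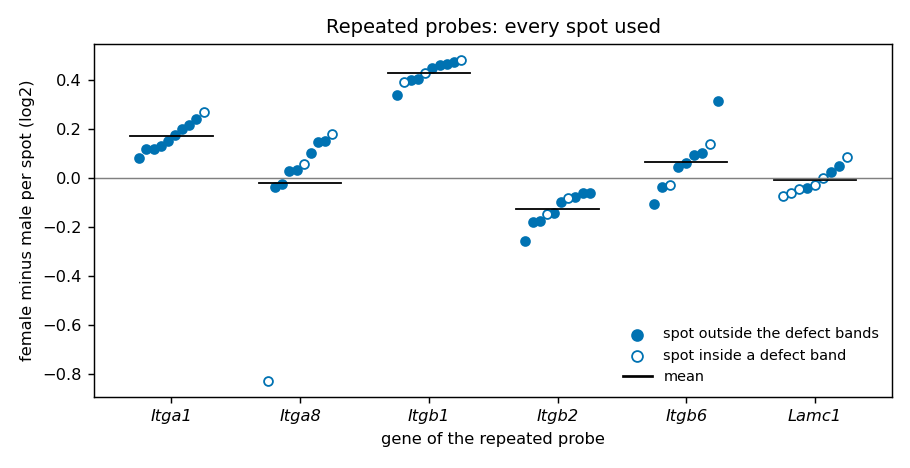
Difference between the pools (female minus male, log2) at every spot used of the 6 member probes printed repeatedly; open circles lie inside the defect bands and a line marks the mean. All 10 spots of Itga1 and of Itgb1 lie above 0, all 10 of Itgb2 lie below 0, and Itga8 has 1 spot at -0.83 far from its others.

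Among the alpha chains that bind collagen, Itga1 was the best measured. Its 10 spots ran from -1.97 through -1.91 to -1.86 in males and from -1.85 through -1.73 to -1.61 in females. The ranges did not overlap, but the highest male spot, -1.860, and the lowest female spot, -1.851, nearly touched. The difference was 0.17 ± 0.061 (SD over 10 spots), between 0.080 and 0.27 on single spots, and higher in females on 10 of 10. Scaled to the E1A spike-ins it was 0.051, within that SD, and not all spots stayed above 0. Of all repeated probes 10.6% were as far from 0, so a shift of this size was not rare on this array. Itga10, a collagen receptor chain of cartilage, was at -5.80 in males and -5.63 in females, and its 2 probes differed by 0.096 and 0.24, each with a technical SD of 0.23. Itga11, the collagen receptor chain of fibroblasts, was at -4.93 in males and -5.08 in females, a difference of -0.15 within its technical SD of 0.23.

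Itga6 and Itga7, 2 of the alpha chains that bind laminin, lay on opposite sides of 0. Itga6, which pairs with beta 1 or beta 4 and is found on endothelium and epithelium, was at -4.12 in males and -3.86 in females. The difference was 0.26 (technical SD 0.10). Another probe, which the files describe as integrin alpha-6 without the gene name, was well above background in males only, at -7.40 against -7.65 in females. Itga7, the laminin receptor chain of muscle and of vessel walls, was at -2.75 and -2.89 in males and females, a difference of -0.14 (technical SD 0.072). The named Itga6 and Itga7 probes were each read on 1 spot, and both spots lay in a defect band.

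The alpha chains that bind fibronectin and related ligands differed little, except Itga9. Itga5, the classical fibronectin receptor, differed by 0.045, and Itga4, which binds fibronectin and Vcam1, by 0.072, both within a technical SD of 0.23 and both turning to the male side when scaled to the E1A spike-ins. Itga8, a receptor for nephronectin, was read on 10 spots. In males they ran from -5.40 through -5.17 to -4.53 and in females from -5.36 through -5.16 to -5.03. The ranges overlapped, and 1 spot in a defect band, bright in males, was apart from the rest at -0.83. The mean difference was -0.020 ± 0.29 (SD over 10 spots), with females higher on 7 of 10, and 0.057 over the 7 spots outside the bands. The second Itga8 probe did not stand well above background in either pool. Itga9, a receptor for tenascin-C, was at -2.56 and -2.31 in males and females, a difference of 0.25 (technical SD 0.072) from 1 spot in a defect band.

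As a class, 6 of the 9 alpha chains were higher in females and 3 in males, with a median of 0.072 that turned to -0.047 when scaled to the E1A spike-ins. The lowest difference was -0.15 for Itga11 and the highest 0.26 for Itga6. None of the 9 genes reached the 25% call.

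**Figure D3:**
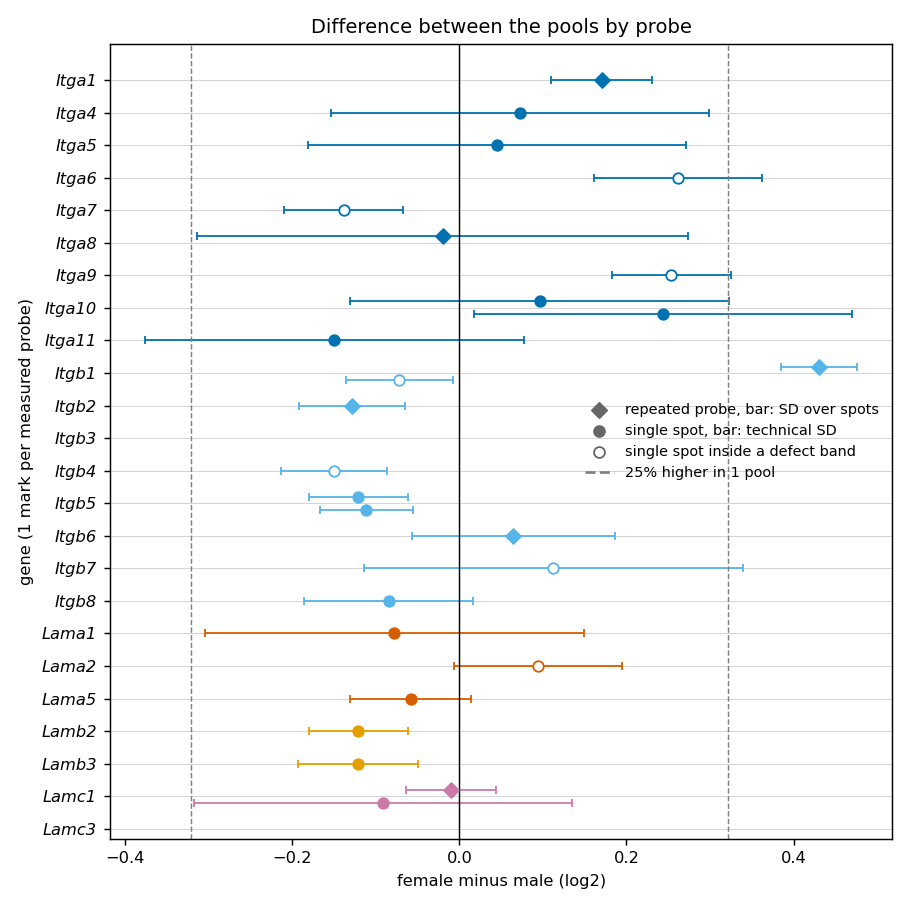
Difference between the pools (female minus male, log2) for each member probe measured in both; bars are the SD over spots for repeated probes (diamonds) and the technical SD for single spots (circles, open inside a defect band), and dashed lines mark 25% higher in 1 pool. Only the repeated Itgb1 probe, at 0.43, lies outside the dashed lines, and the second probe of that gene lies between them.

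Of the 6 other beta chains measured, 4 were lower in females. Itgb2, the shared beta chain of leukocyte integrins, which microglia carry in brain, was read on 10 spots. They ran from -3.47 through -3.31 to -3.20 in males and from -3.62 through -3.43 to -3.34 in females, so the ranges overlapped. At each of the 10 positions females were lower, by a mean difference of -0.13 ± 0.064 (SD over 10 spots), and 17.7% of repeated probes were as far from 0. Itgb4, the partner of Itga6 in epithelial anchoring junctions and on some vessels, was at -1.14 and -1.29 in males and females, a difference of -0.15 (technical SD 0.064) from 1 spot in a defect band. Its sign was opposite to that of Itga6.

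The beta chains that pair with alpha V gave small differences. Itgb5, a vitronectin receptor chain, was lower in females on both of its probes, by -0.12 and -0.11, with technical SDs of 0.059 and 0.056. This was the closest agreement of any member gene with 2 measured probes, the gap being 0.0097. Itgb6, an activator of latent TGF-beta in epithelium, was read on 9 spots. In males they ran from -5.02 through -4.90 to -4.78 and in females from -5.05 through -4.87 to -4.59, with overlap. The difference was 0.065 ± 0.12 (SD over 9 spots), with females higher on 6 of 9. Itgb8, which activates latent TGF-beta on glia and neural progenitors, differed by -0.085, within its technical SD of 0.10. Itgb3, which pairs with alpha V or with the platelet chain Itga2b, did not stand well above background in either pool. Itgb7, the lymphocyte chain that pairs with Itga4, differed by 0.11 on 1 spot in a defect band, within its technical SD of 0.23.

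Of the 7 beta chains measured in both pools, 3 were higher in females and 4 in males, with a median of -0.085, and scaling to the E1A spike-ins turned Itgb6 and Itgb7 to the male side and made the median -0.20. Over all 16 measured integrin chains, 9 were higher in females and the median was 0.055, smaller than the spike-in shift of -0.12 in all genes.

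The laminin alpha chains carry most of the sites for receptors, and the 3 among the members differed by less than their error. Lama1, the chain of the pial basement membrane, was at -4.93 in males and -5.01 in females, a difference of -0.078 (technical SD 0.23). Lama2, made by astrocytes, pericytes and muscle, was at -3.60 and -3.51, a difference of 0.094 (technical SD 0.10) from 1 spot in a defect band, which turned to -0.025 when scaled to the E1A spike-ins. Lama5, a chain of vessel walls and many epithelia, was at -1.89 and -1.95, a difference of -0.058 (technical SD 0.072). The median of the 3 was -0.058, with 1 of 3 higher in females.

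Both member laminin beta chains were lower in females by the same small amount, while Lamb1, given below under its transcript name, was not. Lamb2, found in vessel basement membranes and at synapses, was at -0.60 in males and -0.72 in females, a difference of -0.12 (technical SD 0.059). Lamb3, the beta chain of an epithelial laminin, was at -2.66 and -2.78, a difference of -0.12 (technical SD 0.072). Each value came from 1 spot outside the defect bands.

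Of the laminin gamma chains, Lamc1 was measured in both pools and Lamc3 in 1. Lamc1, the gamma chain of most laminins, was nearly level between the pools on its repeated probe. The 9 spots ran from -0.66 through -0.53 to -0.46 in males and from -0.70 through -0.54 to -0.51 in females, with a mean difference of -0.010 ± 0.054 (SD over 9 spots). The second Lamc1 probe, 10364.5 bases away between centres, was at -4.55 and -4.64, a difference of -0.092 (technical SD 0.23). Both readings of Lamc1 were thus within their error of 0.

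Lamc3, a gamma chain known from retina, cortex and the outer brain surface, was well above background in males only. The probe shown above was at -7.06 in males and -7.61 in females, where it was not well above background. This was a difference of -0.55, 1.46-fold higher in males, from 1 spot with a technical SD of 0.23. It is not a lower limit, since the female level was the probe's own reading. Genes above background in males only numbered 516, and in females only 320. Its second probe did not stand well above background in either pool. Of the 6 laminin chains measured in both pools, 1 was higher in females, with a median of -0.068.

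Chains that the name pattern did not take were read from other names in the files. Of the integrin chains with a lettered name, 3 with a gene symbol were measured, with a median of -0.18. That median leaves out the probe described as alpha V, given below. Itgam, the microglial partner of Itgb2, differed by -0.32 on 1 probe and -0.049 on another. Itgad, also a partner of Itgb2, was at -6.27 in males and -6.99 in females, a difference of -0.72 (technical SD 0.23) from 1 spot in a defect band, which was past the 25% call. Itga2b, the platelet chain, differed by 0.0094 and 0.052 on its 2 probes, the first read on 1 spot in a defect band. Itgal and Itgax did not stand well above background in either pool, and a probe described as alpha E1 was well above background in males only. A probe described as alpha V, the partner of Itgb3, Itgb5, Itgb6 and Itgb8, differed by -0.095 (technical SD 0.23) on 1 spot. The alpha V and alpha E1 spots both lay in a defect band.

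Of the numbered chains kept under transcript names, Itga3, a laminin receptor chain, differed by 0.25 (technical SD 0.23), Lama3, a chain of epithelial laminin, by 0.073 (technical SD 0.23), Lama4, the early vessel laminin chain, by -0.14 (technical SD 0.10), and Lamb1 by 0.019 (technical SD 0.059). A probe described as a laminin beta-1 chain variant, 1 spot in a defect band, was at 0.86 in males and 0.97 in females, a difference of 0.11 (technical SD 0.063). A probe described as alpha 2 integrin was well above background in males only. None of these 4 named genes reached the 25% call, nor did the laminin beta-1 variant probe. Itgbl1, an integrin-like secreted protein chosen after its values were seen, was at -4.49 in males and -3.41 in females, a difference of 1.08 from 1 spot outside the bands.

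The genes that laminins and integrins work with were taken as 5 lists. Over all genes, 6.17% were called higher in females and 3.05% higher in males. Each list is too short for 1 or 2 calls to be read as a trait of the list. The basement membrane partners of laminin had a median of 0.043, with 6 of 11 measured genes higher in females and 0 called apart. The largest differences were in Sparc, a collagen-binding matrix protein, 0.23, Ntn4, a netrin that binds laminin gamma chains, 0.22, and Col4a5, a basement membrane collagen, -0.15. Other laminin receptors and the dystrophin complex had a median of -0.042, with 4 of the 16 genes described higher in females and 0 called apart. The largest differences among these were in Utrn, the relative of dystrophin, 0.18, Sntb1, a syntrophin, 0.17, and Dag1, the laminin receptor dystroglycan, -0.12. The Sntb1 spot and 1 of the 2 Utrn spots lay in a defect band.

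Other extracellular integrin ligands had a median of 0.048, with 9 of 14 higher in females, 1 called higher there and 2 called higher in males. Over all genes these calls were 6.17% and 3.05%. The elastic fibre protein Fbln5 differed by -0.42 and the matricellular protein Ccn1 by -0.41, each on 1 spot with a technical SD of 0.23. The Fbln5 spot lay in a defect band. Ccn2, its relative, differed by 0.41 over 10 spots. Cell surface ligands had a median of 0.0036, with 6 of 12 higher in females. 1 of them was called apart, with females higher, against 6.17% of all genes. Cdh1, E-cadherin and the ligand of the alpha E beta 7 integrin, was at -7.18 in males and -4.36 in females. The difference was 2.82 (technical SD 0.23) on 1 spot outside the bands. The male reading was dim, near the lowest level of the repeated probes, -7.52, so the size of the difference is uncertain. Icam1, the ligand of the beta 2 integrins, differed by 0.19 over 10 spots and Jam3 by 0.084.

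Integrin activators and adaptors inside the cell had a median of -0.025, with 13 of 29 higher in females. 1 was called apart, Lims1, a partner of integrin-linked kinase, with 0.46 on 1 spot in a defect band. Over all genes, 6.17% were called higher in females. Itgb1bp1, which binds the tail of beta 1, differed by -0.23, and Parva, also a partner of integrin-linked kinase, by 0.20. Scaled to the E1A spike-ins, the medians of all 5 lists were below 0.

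**Figure D4:**
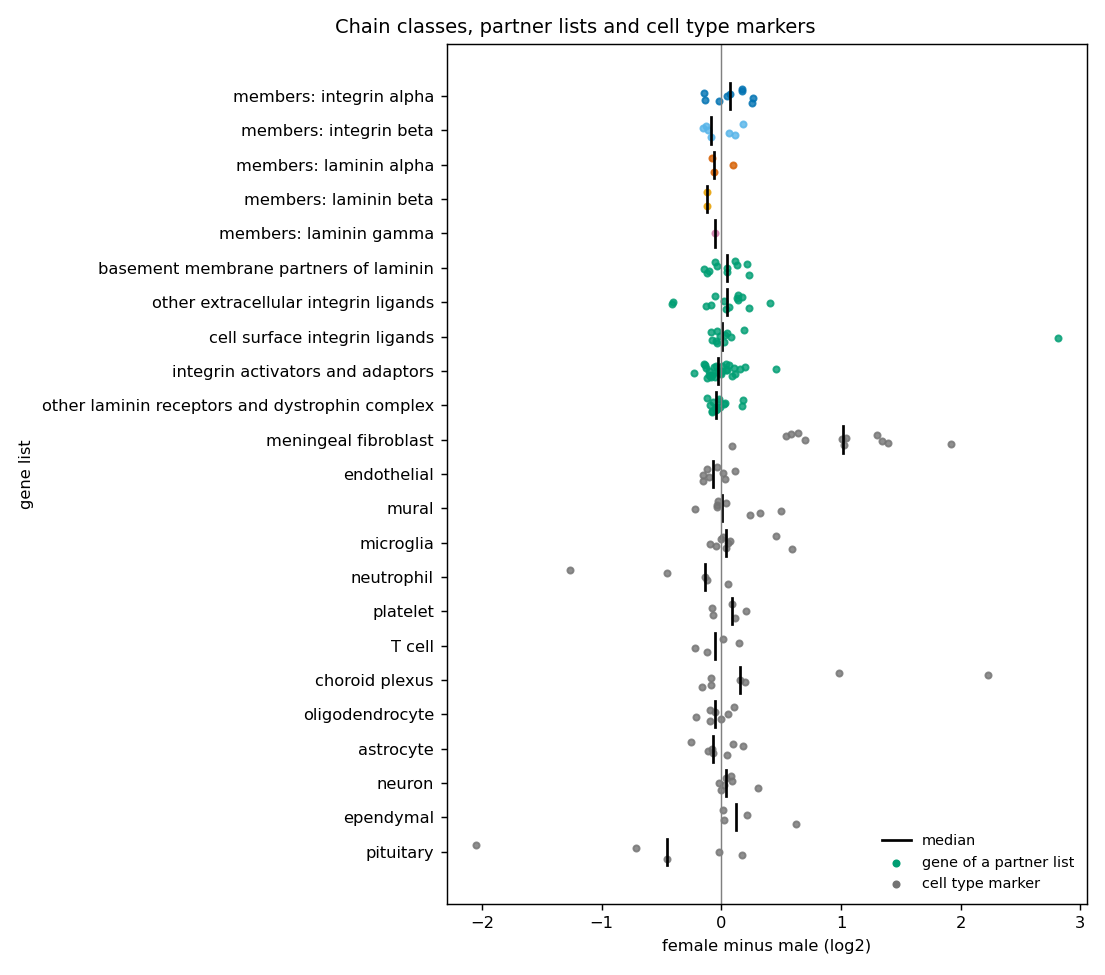
Difference between the pools (female minus male, log2) of each measured gene of the 5 chain classes, the 5 partner lists and 13 lists of cell type markers; a bar marks each list's median. Scaled to the E1A spike-ins every point would lie 0.12 further left. The chain classes and the medians of the partner lists lie near 0, while the 12 meningeal fibroblast markers all lie above 0 with a median of 1.02.

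Markers of the cell types that the dissection could hold were read beside the chains, and summed signals are in multiples of the 75th percentile. Meningeal fibroblast markers were higher in females in 12 of 12 genes, with a median of 1.02 and a summed signal of 5.11 in males and 9.40 in females; the largest differences were in Aldh1a2, 1.92, Slc47a1, 1.39, and Slc22a6, 1.34, each on 1 spot in a defect band. Choroid plexus markers were higher in 4 of 7, with a median of 0.15, short of the 25% call, and sums of 1.37 and 2.44, most of which came from Ttr. The largest differences were in Kcnj13, 2.22, and Ttr, 0.98, each on 1 spot in a defect band, and in Aqp1, 0.20. Pituitary markers were lower in 4 of 5, with sums of 2.92 and 1.75 and differences of -2.05 in Tshb, -0.72 in Cga and -0.46 in Pou1f1. The Cga value came from 1 spot in a defect band. Neutrophil markers were lower in 4 of 5, with sums of 0.23 and 0.19 and differences of -1.27 in S100a8, -0.46 in S100a9 and -0.14 in Mpo. The single Mpo spot also lay in a defect band. The part of these cells in the values of Itgb1, Itga1 or any other chain was not tested.

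Markers of vessel cells, microglia, platelets and T cells, which carry many of these chains, were close to level by their medians. Called higher in females were 2 of 8 mural and 2 of 9 microglia markers, against 6.17% of all genes. None of the endothelial, platelet or T cell markers was called apart. Neutrophil markers, given above, had a median of -0.14, with 2 of 5 called higher in males, against 3.05% of all genes. Endothelial markers had a median of -0.069 and sums of 6.51 and 6.02 in males and females, with Slco1c1 at -0.16, Kdr at -0.16 and Pecam1 at -0.12. The single Pecam1 spot lay in a defect band. Mural cells had a median of 0.0061 and sums of 2.76 and 2.79, with Abcc9 at 0.50, Des at 0.32 and Tagln at 0.24. The Abcc9 value came from 1 spot in a defect band. Microglia, the brain cells with Itgb2, had a median of 0.034 and sums of 18.9 and 19.5, with Cd68 at 0.59, Cx3cr1 at 0.46 and Trem2 at -0.096. Platelet markers had a median of 0.092 (Gp9 0.21, Gp5 0.11, Pf4 0.092), and T cell markers, of which 4 of 7 were measured, -0.055 (Cd4 -0.22, Cd3g 0.15, Lck -0.12). The single Lck spot lay in a defect band.

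Astrocytes, which make Lama2, had a median of -0.069 and sums of 19.5 and 19.4 (Gfap -0.26, Slc1a2 0.18, Aldh1l1 -0.11). Oligodendrocyte markers had a median of -0.058 (Cldn11 -0.21, Mbp 0.10, Opalin -0.096) and ependymal markers 0.12 (Dnah5 0.62, Rarres2 0.22, Tmem212 0.021). The Dnah5 value came from 1 spot in a defect band. Neuronal markers, which check the labelled tissue, were well above background in 7 of 7 named genes, with a median of 0.042 and sums of 38.5 and 39.6 (Gad2 0.30, Tubb3 0.085, Snap25 0.082). The single Tubb3 spot lay in a defect band.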

How the data were processed

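RNA of 2 pools of hypothalamus was measured on 1-colour arrays, both on the same slide and scan per the file headers. The deposited scanner files gave a processed intensity per spot, which the authors' software had background-subtracted and corrected for a spatial trend, and flags for spots above background, saturated or outlying. Per the file headers it was Feature Extraction 10.7.3.1, and per the submitters' processing notes 9.1. The deposited value table held a signal on a linear scale, which matched 100 times the intensity over the 75th percentile of its array, with medians of 29.0 and 29.5 for the male and female pools.

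From these, log2 intensities minus the 75th percentile over non-control spots were averaged per probe and then per gene, without outlier spots. Probes counted as measured if more than 50% of the spots passed the background flag. A chain above background in 1 pool only was set against the higher of the dim pool's lowest level above background and the probe's own level. The technical SD came from repeated spots in 10 bins of level. Defect bands were 20-row blocks in which over 2% of repeated spots lay over 4 robust SDs from their probe's median. With 1 array per pool the call was a level at least 25% higher in 1 pool, and no test was made. The calculation was tested on simulated data. Probes outside the members were named by symbol, or through accessions, synonyms or descriptions in a RefSeq gene table.

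Some genes that the name pattern or the lists take are not reported here. The members and lists were chosen with earlier results of these data known. Values in both pools are given for members at least 25% apart, with repeated spots, above background in 1 pool only, or laminins, and of each list the 3 largest differences are named. 11 alternatives were planned and 1 was added after seeing the data. Tools were Python 3.11.15, pandas 2.3.3, numpy 2.4.6, R 4.3.3 and limma 3.58.1.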

Additional observations from a re-analysis of the deposited data

How the results depend on the processing

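Of the main counts and medians under the alternatives, 125 values stayed within their error or within 1.5 times the count and 19 moved. Scaling to the E1A spike-ins shifted the median of all genes to -0.12 and left 5 members higher in females and 17 in males, where 22.2% of all genes were higher in females. The medians became -0.20 for integrin beta, -0.24 for laminin beta, -0.071 for extracellular ligands, -0.12 for cell surface ligands, -0.14 for activators and adaptors and -0.16 for laminin receptors and the dystrophin complex.

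With normexp background correction, 0 members were at least 25% higher in females and 18 in males, against 1.52% and 58.7% of all genes. The medians became -1.88 for integrin alpha, -1.09 for integrin beta, -0.98 for laminin alpha, -0.47 for laminin beta and -0.83 for laminin gamma, which is Lamc1 alone. The partner lists came to -0.98 for basement membrane, -0.71 for extracellular and -0.18 for cell surface ligands, -0.32 for activators and adaptors and -0.26 for laminin receptors. The median of all genes was -0.55. On the male array 2 spots had a background far above the spot, the lower at -19745, and the 5th percentile after correction was 693 against 64.5 on the female array. Fitted without such spots, a choice made after seeing the data, it was 65.7, and 15 members were higher in females and 7 in males, where 63.6% of all genes were higher in females.

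The brightest probe gave -0.072 for Itgb1. Averaged over all spots, Itgb1 was 0.38 higher in females, so 1 member was called higher in females. Without the bands 16 members had a value, and 1, Itgb1 with 0.43, was called higher in females. No paired analysis was possible because each group held 1 array. The number of arrays limits the precision: no spread between rats or hybridisations could be estimated, and dim probes such as those of Lamc3 and Itga5 had the widest technical SD, 0.23.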
